A study of Homo sapiens with 4 samples.

Results

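The proteasome subunit genes are described here through the H3K27ac regions that a genome-wide table assigns to them. Their regions were all lines of the authors' deposited table whose gene symbol starts with PSMA, PSMB, PSMC, PSMD, PSME, PSMF or PSMG followed by a digit. This gave 144 lines and 143 distinct regions for 48 genes, out of 91107 distinct regions in all. Of the 48 genes, 47 encode proteasome subunits, activators, an inhibitor or assembly chaperones. The remaining symbol, PSMC3IP, was caught by its spelling: it encodes a meiotic recombination factor, and its 2 regions, both with an adjusted p-value, are counted with the rest but described separately. H3K27ac is histone H3 acetylated on lysine 27, a mark of active promoters and enhancers, and it was profiled by ChIP-seq in the melanoma cell line A375.

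The comparison was between 2 libraries of vehicle-treated cells (isopropanol) and 2 of cells treated with octanoate at 1 mM, all for 48 hours. Octanoate is 1 of the fatty acids of coconut and palm kernel oils. The labels do not say whether the libraries of a group came from separate cultures. The authors' deposited table has 1 line per region and gene with a mean level over libraries and a log2 fold change, tested against its standard error. All levels, fold changes, errors and p-values of regions below come from the authors' deposited table unless a centred value is named. It has no value for a single library, so the spread between replicates and the depth of each library are unknown, and every error below is the standard error of the authors' DESeq2 model. The header does not name the numerator of the fold change, so changes are called positive or negative and not gains or losses under octanoate. Coordinates are as in the deposited table, on hg38 per the submitters' processing notes.

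The proteasome is the main protease of the cytosol and nucleus and degrades proteins tagged with ubiquitin. Its barrel-shaped core particle is built of alpha subunits (PSMA genes), which gate the entrance, and beta subunits (PSMB genes), of which PSMB5, PSMB6 and PSMB7 carry the proteolytic sites. PSMB8, PSMB9 and PSMB10 replace those catalytic subunits in the immunoproteasome, which interferon induces and which makes peptides for antigen presentation. The regulatory particle unfolds substrates with ATPases (PSMC genes) and binds, deubiquitinates and positions them with non-ATPase subunits (PSMD genes). PSME genes encode alternative activators, PSMF1 an inhibitor and PSMG genes chaperones that help build the core. The transcription factor NFE2L1, with small MAF partners, is known to drive the subunit genes together when proteasome capacity falls short, through antioxidant response elements in their promoters.

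Promoters of the members were read first, because they show which control elements the acetylated regions cover. RefSeq promoter windows on GRCh38.p14, from 250 bases before to 50 after a gene's start, were at hand for 42 of the proteasome genes, in 51 windows. The genes not matched were PSMA7, PSMB1, PSMB6, PSMB7, PSMD4 and PSMG3. The interferon element was searched as GAAANNGAA on both strands, a motif added after some of these promoters had been read. It was found in 8 of the 51 windows (15.7%) and in 8.11% of all 35116 windows, or 6.62% of those that a region of the deposited table overlaps. In 5 of the 8 genes the match had the same letters, GAAAGCGAA. They were singled out because they recurred among the member matches, so their share of all windows, 94 of 35116 or 0.268%, is a description and no test. The 5 genes were PSMB8 and PSMB10 of the immunoproteasome, PSME1 and PSME2, which together form the interferon-inducible activator, and PSMG4, a core chaperone. Their stretches from 60 bases before to 29 bases after the start base are shown on the strand of the gene, with the match in capitals; in PSMB8 and PSME1 it reads on the opposite strand. They lie at chr6:32844018-32844107 (PSMB8, minus strand), chr16:67936821-67936910 (PSMB10, minus), chr14:24136134-24136223 (PSME1, plus), chr14:24146581-24146670 (PSME2, minus) and chr6:3258887-3258976 (PSMG4, plus).
PSMB8: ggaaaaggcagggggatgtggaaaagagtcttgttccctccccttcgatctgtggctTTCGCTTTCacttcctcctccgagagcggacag
PSMB10: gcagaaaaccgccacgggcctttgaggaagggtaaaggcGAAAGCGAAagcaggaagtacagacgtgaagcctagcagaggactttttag
PSME1: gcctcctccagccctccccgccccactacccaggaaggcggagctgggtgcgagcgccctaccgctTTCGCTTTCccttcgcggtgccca
PSME2: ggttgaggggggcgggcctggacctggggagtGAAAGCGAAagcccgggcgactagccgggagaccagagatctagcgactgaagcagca
PSMG4: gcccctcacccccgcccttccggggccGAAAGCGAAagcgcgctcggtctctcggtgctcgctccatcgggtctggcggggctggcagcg

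The antioxidant response element, searched as TGACNNNGC on both strands, was found in 15 of the 51 windows (29.4%), each of another gene. Among all 35116 windows 13.3% had a match, and 14.5% of the 18783 windows that a region of the deposited table overlaps. The 15 genes were PSMA4, PSMB3, PSMB9, PSMC4, PSMC5, PSMD1, PSMD3, PSMD5, PSMD9, PSMD12, PSME1, PSME2, PSME4, PSMG1 and PSMG2, so members of each layer of the particle are among them. Stretches of 49 bases around the match are shown for 4 of these genes, 1 from the alpha ring, 1 from the beta ring, 1 ATPase and 1 non-ATPase subunit. The capitals mark the element, which in PSMC5 reads on the opposite strand. The stretches lie at chr15:78540640-78540688 (PSMA4, plus), chr17:38752617-38752665 (PSMB3, plus), chr17:63827644-63827692 (PSMC5, plus) and chr17:67366714-67366762 (PSMD12, minus).
PSMA4: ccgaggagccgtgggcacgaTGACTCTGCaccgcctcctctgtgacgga
PSMB3: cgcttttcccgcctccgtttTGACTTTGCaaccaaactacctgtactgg
PSMC5: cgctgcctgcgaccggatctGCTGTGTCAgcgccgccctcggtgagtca
PSMD12: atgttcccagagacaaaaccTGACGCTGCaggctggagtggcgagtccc

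Other elements known at housekeeping promoters were searched likewise on both strands. The ETS site CCGGAAG was in 29.4% of the member windows, 10.3% of all windows and 16.5% of those that a region overlaps. In the same order the CCAAT box (CCAAT) was in 39.2%, 34.6% and 34.0%. The site of nuclear respiratory factor 1 (GCGCATGC) was in 5.88%, 3.05% and 4.90%, and the E-box CACGTG in 5.88%, 7.26% and 9.10%. Antioxidant and interferon matches did not overlap each other in any window shown. Windows of the same gene can share bases, so windows are not independent, and a match is a run of letters and not a measured binding site.

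**Figure D1:**
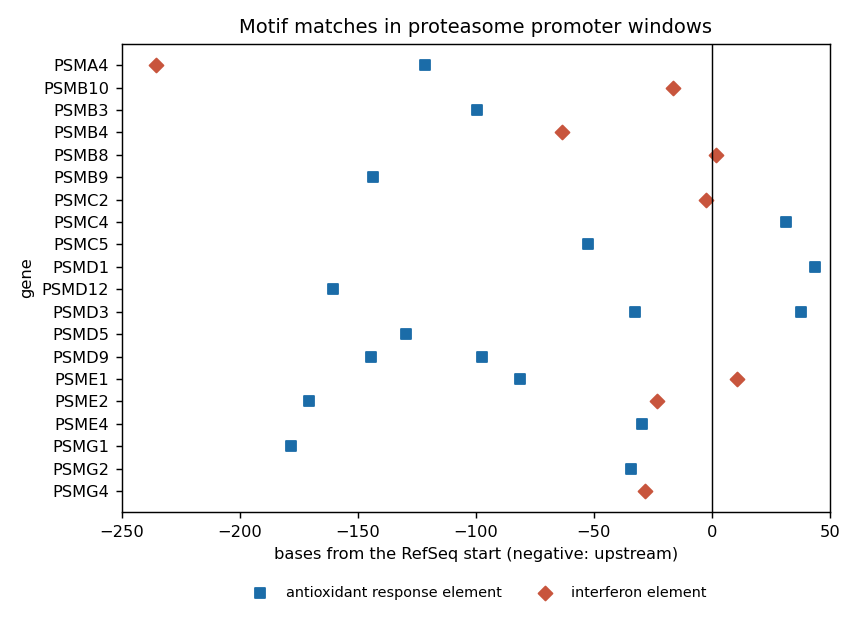
Positions of matches to the antioxidant response element (squares) and the interferon element (diamonds) in RefSeq promoter windows of proteasome genes, in bases from the start (x axis, negative upstream), 1 gene per row. Antioxidant matches run from 183 bases before the start in PSMG1 to 39 bases after it in PSMD1, and the interferon matches of PSMB8, PSMB10, PSME1, PSME2 and PSMG4 lie within 33 bases of the start.

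Nearly all of these promoters carried H3K27ac. For 40 of the 42 proteasome genes with a window (95.2%), a region of the authors' deposited table overlapped it, against 69.1% of 15843 protein-coding genes with a window. The exceptions were PSMA8, an alpha subunit of the testis, and PSMB11, the catalytic beta subunit of the thymus. No line analysed here named PSMA8. The nearest PSMB11 region of the deposited table lay 406 bases from the listed start at a mean level of 3.17, where no adjusted p-value was computed, and its log2 fold change was 1.80 ± 0.99 (standard error). The PSMB11 window held 4 CG steps and the PSMA8 window 25, set against a median of 22 in the 51 member windows, of 25 in all windows with a region and of 4 in those without one. A low count of CG steps did not always go with a missing region, since 1 of the PSMD2 windows had 3 CG steps and a region. That region also covers the other PSMD2 window, which has 39 CG steps. In the other direction, 1 of the 2 PSMF1 windows had 4 CG steps and no region. Both windows are shown up to 29 bases after the start base beside that of PSMB9, which has a region and 26 CG steps. PSMB11 lies at chr14:23041962-23042241 (plus), PSMA8 at chr18:26133619-26133898 (plus) and PSMB9 at chr6:32853942-32854221 (plus), where the capitals mark an antioxidant match on the opposite strand.
PSMB11: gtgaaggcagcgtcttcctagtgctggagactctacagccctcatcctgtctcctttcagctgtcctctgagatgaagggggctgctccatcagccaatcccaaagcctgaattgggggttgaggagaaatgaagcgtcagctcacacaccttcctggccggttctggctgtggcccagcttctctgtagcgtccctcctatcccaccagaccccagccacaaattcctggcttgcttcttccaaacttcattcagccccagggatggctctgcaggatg
PSMA8: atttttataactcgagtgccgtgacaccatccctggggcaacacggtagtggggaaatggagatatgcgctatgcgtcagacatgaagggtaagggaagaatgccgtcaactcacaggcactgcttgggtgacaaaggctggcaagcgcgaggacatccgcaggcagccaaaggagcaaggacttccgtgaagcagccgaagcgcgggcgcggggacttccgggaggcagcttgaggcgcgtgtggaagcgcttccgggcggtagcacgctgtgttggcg
PSMB9: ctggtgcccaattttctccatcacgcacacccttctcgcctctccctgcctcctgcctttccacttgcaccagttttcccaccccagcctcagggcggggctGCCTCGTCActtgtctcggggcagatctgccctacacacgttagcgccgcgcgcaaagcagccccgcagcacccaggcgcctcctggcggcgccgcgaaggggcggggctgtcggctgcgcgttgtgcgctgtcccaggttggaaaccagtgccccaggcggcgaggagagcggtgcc

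The labels' cell type was checked against marker genes. In the authors' deposited table the melanocyte lineage genes SOX10, PMEL and MITF had regions over their starts with mean levels of 774, 269 and 98.4. MITF also had 3 regions over its RefSeq promoter windows, the highest with a mean level of 370.0 in the deposited table. Regions over the starts of MLANA, TYR and DCT, also of that lineage, were not found, and neither were any over those of the leukocyte gene PTPRC, the T cell gene CD3E or the endothelial gene PECAM1. The epithelial gene EPCAM had 1, with a mean level of 50.5 in the deposited table.

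The main question was whether regions of proteasome genes differed between octanoate and vehicle. None passed: 0 of the 71 member regions with an adjusted p-value were called at an adjusted p-value under 0.05 by the authors' DESeq2 comparison, whereas 1.67% of all 36436 tested regions were, or 1.65% as positive calls. The smallest adjusted p-value among the members of the deposited table was 0.133. At an unadjusted p-value under 0.05, 6 of 71 member regions passed (8.45%), all positive, where 18.4% of all tested regions passed, and 17.9% as positive. The member regions had a median log2 fold change of 0.27 in the deposited table, a ratio of 1.21, beside 0.32, or 1.25, over all tested regions. Of the 71, 65 were positive and 6 negative, so 91.5% were positive beside 87.3% of all tested regions. Because most regions were positive, fold changes were also set against the median of all tested regions. Relative to it 32 member regions lay above and 39 below, and 0 were called after this centring, where 0.124% of all tested regions were. At an unadjusted p-value under 0.05 after centring, 1 of 71 member regions passed, where 5.73% of all tested regions did. It lay 148275 bases from PSMG1. The other 72 member regions had mean levels of at most 18.4 in the deposited table and no adjusted p-value.

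**Figure D2:**
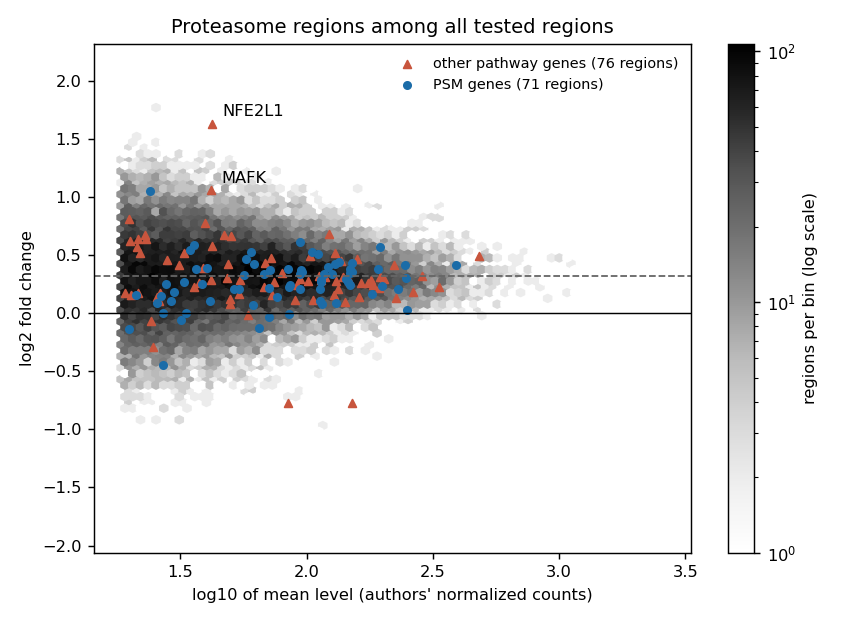
Log2 fold change (y axis) against the log10 of the mean level in the authors' normalized counts (x axis) for all 36436 tested regions (grey bins, darker for more regions), the 71 tested regions of PSM genes (circles) and the 76 of other proteasome pathway genes (triangles). The dashed line is the median of all tested regions, 0.32, and most PSM regions lie around it. The called NFE2L1 (1.63) and MAFK (1.06) regions lie above it, as does an uncalled region named with PSMB2 (1.05).

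At gene starts the log2 fold changes of the members had a smaller SD than those of all starts. The deposited table gives a distance of 0, read as overlap with the start, for 45 of the 48 genes in 44 regions, and all 44 had an adjusted p-value. Their widths in the deposited table ran from 1854 to 10867 bases with a median of 4189, against 3317 over all 9996 tested regions at starts. Level was compared per kilobase, since wider regions collect more reads. It ran from 16.8 normalized counts per kilobase at PSMB1 to 46.5 at PSMB4 in the deposited table, with a median of 27.7, against 25.8 over all starts. The log2 fold changes at member starts had a median of 0.33, beside 0.35 at all starts. They ran from -0.01 at PSMD1 to 0.57 at PSMB7 in the deposited table, and 43 of the 44 were positive. Their SD was 0.14 and their median standard error 0.23. The SD is a spread across regions and the standard error belongs to the comparison of 1 region. Setting them side by side therefore does not test whether the genes agree. Over all starts of the deposited table the SD was 0.21 and the median standard error 0.25, so there too the SD was the smaller. Member starts had a higher median of the mean level, 115 beside 87.8 over all starts. Called regions made up 0 of the 44 and 0.86% of all starts. At an unadjusted p-value under 0.05, 4 of the 44 passed (9.09%), and 19.2% of all starts.

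**Figure D3:**
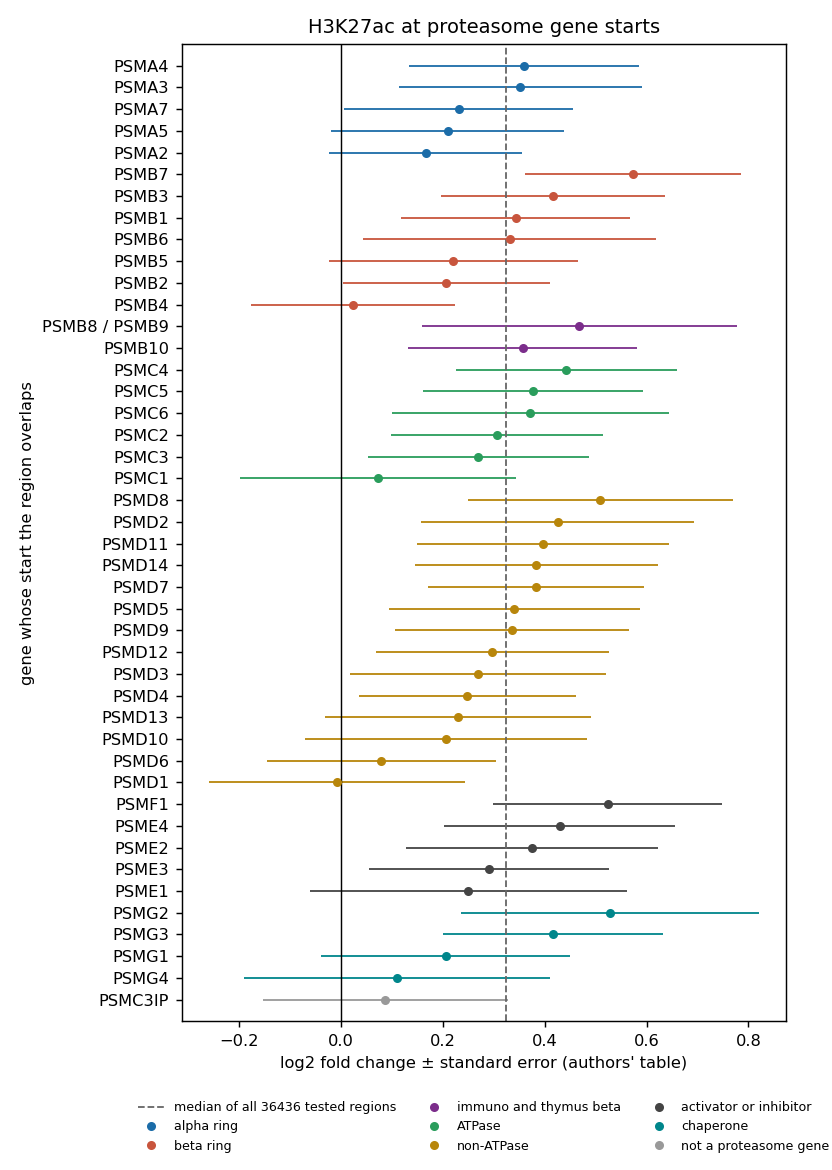
Log2 fold change with its standard error (x axis) of each region over the start of a member gene in the authors' deposited table (1 row each, coloured by class, ordered by value within a class). The dashed line is the median of all tested regions, and the points run from -0.01 at PSMD1 to 0.57 at PSMB7 with error bars of 0.19 to 0.31 that mostly reach the line.

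The alpha ring was represented by PSMA1 to PSMA7, whose 9 tested regions had a median log2 fold change of 0.24 in the deposited table and 0 calls. At starts the highest value was that of PSMA4, with 0.36 ± 0.23 (standard error) at a mean level of 150.1 and an adjusted p-value of 0.356. The lowest was that of PSMA2, with 0.17 ± 0.19 at 182 in the deposited table and an adjusted p-value of 0.586. The PSMA2 region (chromosome 7, 42925221 to 42935355) also overlaps the start of MRPL32, a mitochondrial ribosomal protein gene. PSMA3, PSMA5 and PSMA7 lay between these, at 0.35, 0.21 and 0.23 in the deposited table. The region over the RefSeq start of PSMA1 had 0.24 ± 0.24 and that of PSMA6 0.34 ± 0.23, although the deposited table lists them 122216 and 12502 bases from those genes. No alpha subunit region had a negative value among those tested.

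Among regions listed at a distance of 0, the constitutive beta ring gave both the largest and nearly the smallest fold change. The region over the RefSeq start of PSMB9, listed elsewhere and described below, had a larger one of 0.61. PSMB7, the subunit with trypsin-like activity, had a region (chromosome 9, 124407150 to 124415963) with a log2 fold change of 0.57 ± 0.21 (standard error) at a mean level of 196 in the deposited table, a ratio of 1.49. Its unadjusted p-value was 0.00696 and its adjusted one 0.133, and centring left 0.25. PSMB4, a structural subunit, had 0.02 ± 0.20 at a mean level of 250 in the deposited table (chromosome 1, 151398530 to 151403907, adjusted p-value 0.943). These intervals of 1 standard error do not overlap, but the 2 regions were picked as extremes. Their difference was not tested, and neither region passed. The other catalytic subunits lay between: PSMB5, which has the chymotrypsin-like site that bortezomib blocks, had 0.22 ± 0.24, and PSMB6, with the caspase-like site, 0.33 ± 0.29 in the deposited table. PSMB1, PSMB2 and PSMB3 had 0.34, 0.21 and 0.42. The PSMB3 region (chromosome 17, 38745666 to 38755583), which also overlaps the start of the Polycomb gene PCGF2, had the highest mean level of all members in the deposited table, 391.

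Of all tested regions at starts 98.1% were positive, and the tested regions of the immunoproteasome genes were positive throughout. PSMB8, its chymotrypsin-like subunit, shares a region with PSMB9 in the deposited table (chromosome 6, 32842841 to 32844709) that had 0.47 ± 0.31 (standard error) at a mean level of 57.7 and an adjusted p-value of 0.374. By the RefSeq windows that region lies over the start of PSMB8 only. The PSMB9 start, which faces that of the peptide transporter gene TAP1 and whose promoter is printed above, lies in another region (chromosome 6, 32852113 to 32855851), listed 7978 bases from PSMB9. That region had 0.61 ± 0.25 at a mean level of 93.9 in the deposited table, and its p-value was 0.0150 before and 0.179 after adjustment. PSMB10 had 0.36 ± 0.23 at 151 in the deposited table (adjusted p-value 0.357). Per kilobase, the PSMB8, PSMB9 and PSMB10 start regions had levels of 30.9, 25.1 and 41.2 in the deposited table. Those of their constitutive counterparts PSMB5, PSMB6 and PSMB7 had 31.3, 30.5 and 22.2, so the ranges of the sets overlapped. Over the 5 windows with the letters GAAAGCGAA the regions had log2 fold changes from 0.25 to 0.47 in the deposited table, with a median of 0.36, beside 0.34 over the other 36 regions at member windows. Over windows with an antioxidant match the 15 regions had a median of 0.36, and the 26 over the other member windows had 0.32. These differences between medians were not tested.

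All of the ATPase genes PSMC1 to PSMC6 had a region at the start. PSMC4 was highest, with 0.44 ± 0.22 (standard error) at a mean level of 135 in the deposited table (chromosome 19, 39969148 to 39973005), where the p-value was 0.0420 before and 0.256 after adjustment. PSMC1 was lowest, with 0.07 ± 0.27 at 61.6 and an adjusted p-value of 0.873. PSMC5, PSMC6, PSMC2 and PSMC3 had 0.38, 0.37, 0.31 and 0.27 in the deposited table. The median over the ATPase starts was 0.34, beside 0.35 over all starts, and the difference was not tested.

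The 14 PSMD genes had 20 tested regions with a median of 0.28 in the deposited table. PSMD8, a subunit of the lid, was highest at starts with 0.51 ± 0.26 (standard error) at a mean level of 111 (chromosome 19, 38373754 to 38377063), where the p-value was 0.0499 before and 0.271 after adjustment. PSMD1, the large scaffold of the base, was lowest with -0.01 ± 0.25 at 85.3 in the deposited table (adjusted p-value 0.986), and PSMD6 followed with 0.08 ± 0.22. PSMD2, the other scaffold of the base, had 0.43 ± 0.27 in the deposited table. The ubiquitin receptor PSMD4 had 0.25 ± 0.21 and the deubiquitinase PSMD14 0.38 ± 0.24. The chaperones that help assemble the base, PSMD5, PSMD9 and PSMD10, had 0.34, 0.34 and 0.21 in the deposited table. PSMD3, PSMD7, PSMD11, PSMD12 and PSMD13 lay between 0.23 and 0.40 there. The order of these genes was not tested, and neighbours differ by less than the standard error of either region.

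Among activators, PSME1 and PSME2, partners in the interferon-inducible PA28 ring, had 0.25 ± 0.31 (standard error) and 0.37 ± 0.25 in the deposited table. PSME1 had the lowest mean level of all member starts, 38.5. PSME4, which encodes PA200, had 0.43 ± 0.23 at a mean level of 151 in the deposited table and an adjusted p-value of 0.287. PSME3, which encodes the nuclear activator PA28 gamma, had 0.29 ± 0.24 in a region it shares with the autophagy gene BECN1, and 0.42 ± 0.23 in the region over its RefSeq start, listed 7657 bases away in the deposited table. PSMF1, the inhibitor PI31, had 0.52 ± 0.23 at a mean level of 105 (chromosome 20, 1117782 to 1122799), and its p-value was 0.0201 before and 0.198 after adjustment. It was the highest of this group.

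The chaperone genes had 23 regions, of which 12 had an adjusted p-value and 0 were called. PSMG2 had 0.53 ± 0.29 (standard error) at its start in the deposited table, PSMG3 0.42 ± 0.22, PSMG1 0.21 ± 0.24 and PSMG4 0.11 ± 0.30. The region over the RefSeq start of PSMG4, listed 26563 bases away, had 0.34 ± 0.26. PSMG1 had 12 regions, the most of any member, and the most negative tested value, -0.45 ± 0.34 in a region 148275 bases away (chromosome 21, 39033233 to 39035577) with an adjusted p-value of 0.434 in the deposited table. PSMC3IP, which is no proteasome gene, had 0.09 ± 0.24 at its start and -0.13 ± 0.41 in its other region.

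Member starts listed at a distance of 0 with an unadjusted p-value under 0.05 lay on chromosomes 9, 19 and 20. Values over all starts of these chromosomes are given beside them. Starts on chromosome 19, where PSMC4 and PSMD8 lie, had a median log2 fold change of 0.40 over 734 regions, beside 0.35 over all starts without that chromosome. Without chromosome 19 the member starts had a median of 0.32. On chromosome 20, where PSMF1 lies, 29% of 279 starts had an unadjusted p-value under 0.05, and on chromosome 9, where PSMB7 lies, 23.3% of 421 did, beside 24.0% on chromosome 19. Over all starts the share was 19.2%. The region over the RefSeq start of PSMB9, on chromosome 6, had an unadjusted p-value of 0.0150 in the authors' DESeq2 comparison. On that chromosome 14.8% of 526 starts had one under 0.05. The part of the chromosome in these values was not tested.

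Proteasome genes were often listed with a neighbour at the same start region. Of the 44 member start regions of the deposited table, 14 (31.8%) were listed at a distance of 0 for 2 or more genes, as were 13.7% of all tested starts. In 13 of these the partner was not a proteasome gene, and the exception was PSMB8 with PSMB9. By the RefSeq windows the starts of PSMB9 and of PSME3, listed with BECN1, lie in other regions. For PSMD9 and PSMB10 the only partners were transcripts with clone names, RP11-87C12.2 and CTC-479C5.12. Such partners included TBP, the TATA-binding protein, beside PSMB1, the sirtuin gene SIRT3 beside PSMD13, and the autophagy gene ATG4A beside PSMD10. The 13 shared regions had a median log2 fold change of 0.34 in the deposited table and the 31 others 0.33. Over all tested starts it was 0.31 for those listed for 2 or more genes and 0.36 for the rest. The former were also wider, with a median of 4275 bases beside 3177. None of these differences was tested. A value in a shared region cannot be assigned to either gene.

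Of the 99 member regions listed away from a start, 27 had an adjusted p-value, with a median log2 fold change of 0.18 in the deposited table beside 0.31 over all 26440 such tested regions. Of these 27, 6 lie over a RefSeq start of their gene, as given above for most of them, and were left out of what follows, a choice made after seeing the data. The remaining 21 overlapped no RefSeq promoter window of any gene and had a median of 0.15, beside 0.30 over the 23883 tested regions chosen likewise. Within 10 kb 6 of them had a median of 0.26 (0.34 over all regions in that range), from there to 50 kb 9 had 0.15 (0.32), and beyond 50 kb 6 had 0.047 (0.27). No adjusted p-value under 0.05 was among these member regions, so the lower medians rest on a few regions that did not pass. The largest tested value lay 14714 bases from PSMB2 (chromosome 1, 35656558 to 35657888), with 1.05 ± 0.41 (standard error) at a mean level of 23.9, and a p-value of 0.0111 before and 0.162 after adjustment in the deposited table. A neighbouring region, 13400 bases from PSMB2, had 1.12 ± 0.57 at a mean level of 8.86 in the deposited table, too low for an adjusted p-value, with an unadjusted one of 0.0484. The PSMB2 start itself had 0.21 ± 0.20, and a region 34643 bases away on the other side had -0.13 ± 0.26. The 72 regions without an adjusted p-value had standard errors of 0.39 to 1.29 in the deposited table, and 38 were positive and 34 negative.

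**Figure D4:**
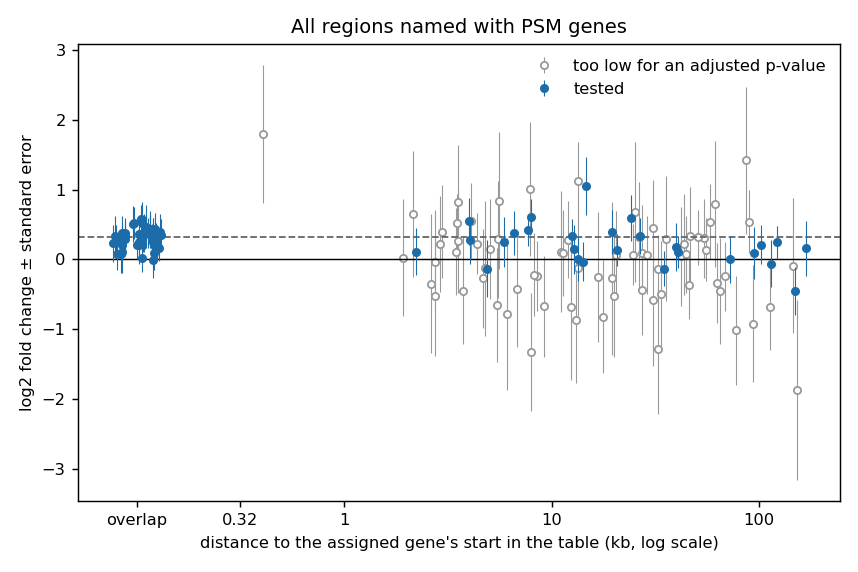
Log2 fold change with its standard error (y axis) of all 143 regions named with PSM genes against the distance to the listed start (x axis, kb, log scale; regions over the start are at the left with a small sideways spread). Filled points are the 71 tested regions and open points the 72 of low level, whose error bars are wider, and the dashed line is the median of all tested regions.

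Other genes of the same pathway were described from a list of assembly factors, regulatory-particle partners, transcriptional regulators, shuttle factors and ubiquitin genes. The list found 32 genes with 166 regions, of which 76 had an adjusted p-value. Of these 76, 2 were called (2.63%, against 1.67% of all tested regions), both positive. The difference between these shares was not tested. The calls were named with the regulators NFE2L1 and MAFK, and the MAFK one lies outside that gene and was not called after centring. At an unadjusted p-value under 0.05, 11 of the 76 passed, or 14.5%, all positive, beside 18.4% of all tested regions. The median log2 fold change was 0.29 in the deposited table, beside 0.32 over all tested regions. Over the 32 regions at starts, none of which was called, it was 0.29, beside 0.35 at all starts.

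The called NFE2L1 region is the clearest value of the pathway. NFE2L1 encodes the factor that induces proteasome subunit genes when degradation is impaired. Its region (chromosome 17, 48054732 to 48056867) lies inside the gene's RefSeq span, 5960 bases from the listed start, and had a log2 fold change of 1.63 ± 0.32 (standard error) at a mean level of 42.1 in the deposited table, a ratio of 3.10. Its unadjusted p-value was 2.56e-07 and its adjusted one 0.000518, which placed it at rank 18 of all regions by p-value. After centring it had 1.31 and an adjusted p-value of 0.0389, so it was still called. The region over the NFE2L1 start, by contrast, had 0.32 ± 0.20 at a mean level of 287 in the deposited table. The difference between these NFE2L1 regions was not tested.

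The other call lay 8584 bases from MAFK, a small MAF protein that pairs with NFE2L1 and NFE2L2. It lies outside the RefSeq span of MAFK and overlaps that of LOC124901572. This region (chromosome 7, 1520019 to 1522130) had 1.06 ± 0.30 (standard error) at a mean level of 41.7 in the deposited table and an adjusted p-value of 0.0374. It was not called after centring, with 0.74 and an adjusted p-value of 0.615, nor when p-values were adjusted over all distinct regions, with 0.0922. The MAFK start had 0.68 ± 0.25 in the deposited table and an adjusted p-value of 0.129. The related regulators had lower values at their starts, with 0.50 ± 0.26 at MAFG and 0.24 ± 0.21 at NFE2L2. The enzymes that process NFE2L1, the protease DDI2 and the glycanase NGLY1, had 0.29 ± 0.21 and 0.27 ± 0.25 at their starts in the deposited table.

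Among the remaining companions, starts of KIAA0368, the older symbol of the proteasome adaptor ECPAS, and of the shuttle factor UBQLN4 had 0.47 ± 0.23 and 0.41 ± 0.21 (standard error) in the deposited table, with adjusted p-values of 0.257 and 0.267. The assembly chaperone POMP had 0.26 ± 0.20 at its start, the ubiquitin receptor ADRM1 0.31 ± 0.22 and the unfoldase VCP 0.31 ± 0.24. All 32 starts of the list were positive in the deposited table, the highest 0.68 at MAFK, as were 98.1% of all tested starts.

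**Figure D5:**
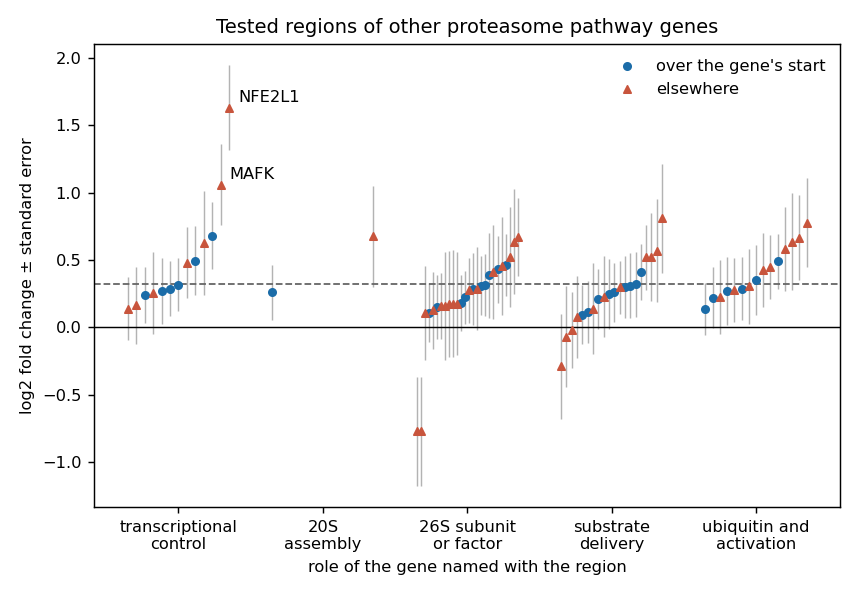
Log2 fold change with its standard error (y axis) of the 76 tested regions of other proteasome pathway genes, by role (x axis), with circles for regions over the gene's start and triangles for others. The dashed line is the median of all tested regions, and the called regions of NFE2L1 (1.63) and MAFK (1.06) are labelled.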

How the data were processed

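H3K27ac was profiled in 4 libraries of A375 cells, grouped by the treatment in the labels. Per the submitters' processing notes, Trim Galore, cutadapt, FastQC, Bowtie2, Picard, MACS2, featureCounts, DESeq2 and bedtools 2.29.1 were used and the build was hg38, and the notes give no settings. The authors' deposited table holds, per the file headers, a mean level (a normalized signal), a log2 fold change and its standard error on the log2 scale, a score (the Wald statistic), a p-value, an adjusted p-value and a distance score in bases. It has 0 columns for single libraries, so the fit on values per library that the design allowed for was not run and the authors' DESeq2 comparison was used.

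Lines that repeat a region for another gene were merged. The score equalled the fold change over its error to within 3.38e-14. An adjusted p-value of 1 was read as not computed, since Benjamini-Hochberg adjustment over the 36436 other regions gave the deposited values back to within 1.58e-14. Calls are adjusted p-values under 0.05. For centring, the median of tested regions was subtracted, and the result over the deposited standard error gave a normal p-value (two-sided), adjusted over the same regions. Named were, per class, the largest and smallest start values and all member regions with an unadjusted p-value under 0.05, and the members of highest mean level. Companions were named at starts with an unadjusted p-value under 0.05, and some that the rule would name are not reported here; the called regions of NFE2L1 and MAFK and other companions were named after their values were seen. Motifs were searched in RefSeq promoter windows of GRCh38.p14. Centring was also run on simulated data with independent errors and a shift common to all regions. That setting cannot show whether the shift in these data is common to all regions. Python 3.11.15, pandas 2.3.3, NumPy 2.4.6 and SciPy 1.17.1 were used. The members and lists were chosen with earlier results of these data known. Alternatives are given in the closing section.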

Additional observations from a re-analysis of the deposited data

How the results depend on the processing

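The count of 0 called proteasome regions was kept after centring and with adjustment over all distinct regions, and was 6 at an unadjusted p-value under 0.05. An adjusted p-value under 0.01 and a minimum size of 1 for the log2 fold change only tighten the rule. Leaving out PSMC3IP, counting table lines and keeping regions over RefSeq promoter windows use the same regions or part of them. The count was 0 in these settings too and could not have risen. The 2 calls of other pathway genes became 1 at an adjusted p-value under 0.01, 1 with adjustment over all distinct regions and 1 after centring, and 11 at an unadjusted p-value under 0.05; leaving out 2 narrow regions named with USP14 kept 2. The NFE2L1 region was called in all of these. The median log2 fold change of 0.27 over tested member regions was 0.21 with all levels and -0.052 after centring, by construction. At starts the median of 0.33 was 0.0099 after centring and lay between 0.30 and 0.34 in the other settings, including means, levels of at least 10 or 100 and each class left out. RefSeq windows as the definition of a start, chosen after seeing the data, gave 0.34. The MAFK region was not called after centring or with adjustment over all distinct regions. Leaving out replicates, DESeq2 size factors, filters on counts and a replicate block were not run. No paired analysis was possible because values of single libraries were not in the table used here. Standard errors at starts ran from 0.19 to 0.31. Each belongs to the comparison of 1 region, and differences between genes were not tested.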

Other observations

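The most negative tested values of the companion list belonged to 2 narrow regions on chromosome 18, named with the deubiquitinase gene USP14 from 50162 and 49168 bases away. The first (108004 to 108221) had -0.77 ± 0.40 (log2 fold change and standard error) at a mean level of 152 in the authors' deposited table, and its adjusted p-value was 0.281. At 699 normalized counts per kilobase it had the highest level per length of all tested regions away from starts, where the median was 17.3. The second (108756 to 109215) had -0.77 ± 0.41 at a mean level of 84.5, while the USP14 start had 0.29 ± 0.27 and 18.9 per kilobase in the deposited table. Only 8 tested regions of the deposited table were narrower than 500 bases with a mean level over 50, a rule chosen after these values were seen. Their median log2 fold change was -0.72, and both regions named with USP14 are among the 8.

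For 6 genes or gene and region pairs the region over the RefSeq promoter window is not the one listed at a distance of 0 in the deposited table: PSMA1, PSMA6, PSMB9, PSME3, PSMG4 and a later start of PSMG2. The PSMG2 region, shared with the centrosome gene CEP76 and listed 40870 bases away, had 0.11 ± 0.23 in the deposited table, and the PSMG2 region at a distance of 0, shared with SPIRE1, had 0.53 ± 0.29.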
